A study of Caenorhabditis elegans with 11 samples.

Results

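The zig genes of Caenorhabditis elegans encode small cell-surface or secreted proteins built from a pair of immunoglobulin domains. The 8 genes described here, zig-1 to zig-8 (WBGene00006978 to WBGene00006985), were chosen by name after read counts of these same libraries had been seen, so that every level and every difference between groups below had already informed the choice. They are 8 of 42048 genes in the count tables, and all 8 were among the 15133 genes with enough reads to be tested. Their values are therefore given as a description, without a p-value of their own from this fit, and a zig gene is written as called where it passed the threshold of the fit across all genes (adjusted p under 0.05, edgeR's quasi-likelihood test with Benjamini-Hochberg adjustment).

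RNA was sequenced from whole adult worms in 11 libraries that fall into 5 groups. The late groups, 12 days old by the labels, were ahr-1(ia3) mutants on Escherichia coli K12 (n = 2), the wild-type strain N2 on the tnaA strain of these bacteria (n = 2), and N2 on K12 (n = 2). The early groups were N2 on tnaA bacteria (n = 2) and N2 on K12 (n = 3), and their age is 3 days in the labels but 2 days in the study's design text. K12 bacteria make indole, the tnaA strain lacks the tryptophanase that releases indole from tryptophan, and ia3 removes the function of ahr-1, which encodes the aryl hydrocarbon receptor of worms. All worms grew at 16 °C on their bacteria from the embryo stage, with about 150 adults pooled per sample. Because every mutant library is late and on K12, the mutation was compared at that age and on that food only.

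In worms, axons and nerve cell bodies are laid down in the embryo and early larva and must then hold their places while the animal grows and moves. Genes that act only in this later task are called maintenance genes, and the zig family is among the best known. Several zig genes are expressed in PVT, an interneuron at the rear end of the ventral nerve cord. Loss of zig-3 or zig-4 lets axons drift across the midline of the ventral cord after they had first grown correctly, and zig-5 acts together with zig-8 to hold cell bodies and axons in place. ZIG-1 is predicted to stay in the cell membrane, whereas the others are predicted to be secreted.

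In the Ensembl 115 annotation of assembly WBcel235, zig-2, zig-3, zig-4 and zig-6 lie on chromosome X, zig-1 and zig-7 on chromosome I, and zig-5 and zig-8 on chromosome III. Each has 1 annotated transcript, with 3 exons in zig-2, zig-3 and zig-4, 5 exons in zig-5, 6 in zig-6, and 7 in zig-1, zig-7 and zig-8. The annotated exons add up to between 747 bases (zig-7) and 1039 bases (zig-4), and the encoded proteins have between 238 residues (zig-2) and 268 residues (zig-8). zig-4 and zig-3 are neighbours on 1 strand of chromosome X with 0 protein-coding genes between them. Exons of zig-1 share 63 bases with ensa-1, exons of zig-8 share 33 bases with bre-2, and exons of zig-6 share 1 base with a noncoding RNA gene, and the strand setting of the read counting is not given in the sources used here.

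Reads assigned to genes numbered 8310145 to 15307891 per library, and the 8 zig genes together held 1755 to 3253 of them in each late library and 566 to 708 in each early library. Levels are given in counts-per-million-reads units (CPM) scaled by edgeR's TMM factors, which lay between 1.14 and 1.17 in late libraries and between 0.82 and 0.877 in early ones, so that age differences depend on this scaling. With library size as the only scaling, the median of all tested genes shifted by 0.42 on the log2 scale for late minus early on K12 and by 0.48 on tnaA. That scaling also raised the share of higher among all called genes to 71.9% on K12 and 71.4% on tnaA, against 47.3% and 49.5% with TMM. For late ahr-1 against late N2 worms, DESeq2's size factors gave 40.02% against 50.2% with TMM. Early N2 K12 replicate 3 and early N2 tnaA replicate 2 stood apart from the rest of their groups in sperm transcripts. The alternative without sperm-rich libraries left out only these early N2 libraries. Both late ahr-1 libraries also held more sperm transcripts than every late N2 library. The defining neuronal markers rgef-1, unc-119, rab-3, snb-1, ric-4, unc-64, snt-1 and egl-3 had reads in every group. The ahr-1 gene itself had 19 and 14 reads in late ahr-1 libraries and 56 and 35 reads in late N2 K12 libraries, a difference of −1.03 ± 0.47 (log2, SE) that was not called (adjusted p = 0.13, edgeR). No source used here gives the part of the gene that ia3 changes, and these reads are a weak check of the genotype.

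Within the family, late and early N2 worms differed most in zig-4 and its neighbour zig-3, the genes that hold ventral cord axons in place, and in zig-8. On K12, late worms had 94.4 and 91.4 CPM of zig-4 (1651 and 1510 reads), and early worms had 1.33, 1.52 and 2.18 CPM (16, 19 and 28 reads). On tnaA bacteria, zig-4 stood at 105.5 and 116 CPM in late worms (1791 and 1129 reads) and at 1.16 and 1.63 CPM in early worms (15 and 20 reads). Every late library was thus far above every early one, with no overlap on either food. The fitted difference was 5.78 ± 0.12 (log2, SE), or 54.8-fold, for late minus early on K12 and 6.30 ± 0.14, or 79.0-fold, on tnaA. Among the 15133 tested genes, 113 had a larger increase than zig-4 on K12 and 164 on tnaA.

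zig-3 read 26.6 and 20.2 CPM in late K12 worms and 1.08, 1.36 and 1.32 CPM in early K12 worms. On tnaA it read 32.9 and 26.97 CPM in late worms and 1.32 and 0.979 CPM in early worms. The age groups did not overlap, and the difference was 4.21 ± 0.19 (18.5-fold) on K12 and 4.70 ± 0.22 (26.0-fold) on tnaA, the second largest in the family on both foods. The ratio of zig-4 to zig-3, per base of annotated exon, was 2.95 to 4.18 in the 6 late libraries and 0.814 to 1.54 in the 5 early ones, so the neighbours were near parity in early worms and apart in late ones. In whole-worm RNA, more cells of a type and more RNA per cell cannot be told apart for these or any other zig gene.

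zig-8, which acts with zig-5 in keeping neurons in position, read 8.40 and 8.41 CPM in late K12 worms and 1.25, 1.68 and 2.18 CPM in early K12 worms. On tnaA it read 10.1 and 9.06 CPM in late worms and 1.09 and 1.63 CPM in early worms. All late libraries again stood above all early ones, with differences of 2.29 ± 0.22 (4.89-fold) on K12 and 2.82 ± 0.26 (7.06-fold) on tnaA. Its partner zig-5 was not called on either food. zig-5 read 2.57 and 2.72 CPM in late K12 worms against 2.75, 3.61 and 2.49 CPM in early K12 worms, a difference of −0.15 ± 0.23, and the groups overlapped. On tnaA, zig-5 read 3.24 and 3.81 CPM in late worms and 2.64 and 2.94 CPM in early worms. That was a difference of 0.33 ± 0.26, with both late libraries above both early ones. With 2 libraries per group, genes that do not differ can stand apart in this way too. The share of all tested genes that did so is not given here.

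**Figure D1:**
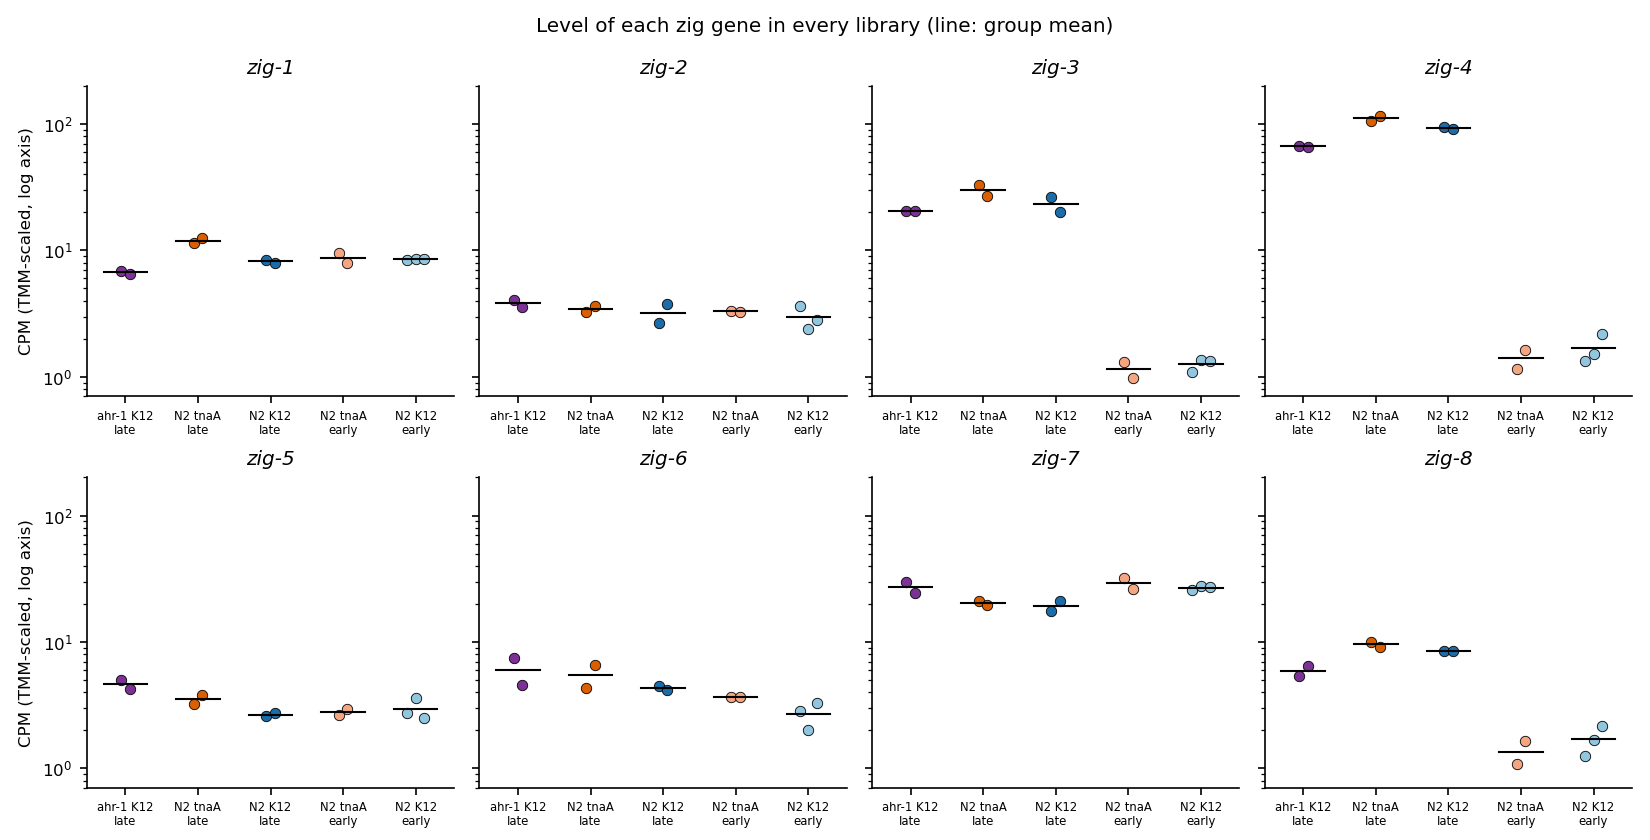
Level of each zig gene in CPM (vertical log axis) in the 11 libraries, by group; dots are libraries and lines are group means. zig-3, zig-4 and zig-8 stand far higher in the 6 late libraries than in the 5 early ones, whereas the other 5 genes differ less between the ages.

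The remaining genes differed less with age. zig-7 read 17.4 and 21.2 CPM in late K12 worms and 25.8, 27.6 and 27.3 CPM in early K12 worms, with every late library below every early one. On tnaA it read 21.04 and 19.8 CPM in late worms and 32.2 and 26.4 CPM in early worms, again without overlap. It was called lower on both foods, by −0.48 ± 0.12 on K12 and −0.52 ± 0.13 on tnaA, but with library size as the only scaling these values were −0.06 and −0.04 and not called. On tnaA its call was also lost without the sperm-rich libraries, at −0.38. zig-6 read 4.46 and 4.17 CPM in late K12 worms against 2.83, 2.00 and 3.27 CPM in early K12 worms, and was called higher by 0.67 ± 0.28. That zig-6 call was lost when late N2 K12 replicate 1 (0.62) or 3 (0.72), early N2 tnaA replicate 3 (0.67), or early N2 K12 replicate 1 (0.71) or 2 (0.50) was left out, and also under DESeq2 (0.74) and with a replicate block (0.52). On tnaA, zig-6 differed by 0.55 ± 0.30 and was not called, but it was called without late N2 tnaA replicate 2 (0.84).

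zig-1, the member predicted to stay in the membrane, varied little on K12, at 8.46 and 7.99 CPM in late worms and 8.42, 8.50 and 8.56 CPM in early worms. The difference was −0.05 ± 0.13 and not called, but with library size as the only scaling it turned to 0.37 and was called. On tnaA it read 11.4 and 12.5 CPM in late worms and 9.54 and 7.92 CPM in early worms and was called higher, by 0.44 ± 0.14. That call was lost without late N2 tnaA replicate 3 (0.38) or early N2 tnaA replicate 3 (0.31), under DESeq2 (0.49) and without a filter on low counts (0.42). zig-2 read between 2.41 and 3.75 CPM in all 9 N2 libraries, with age differences of 0.12 ± 0.24 on K12 and 0.05 ± 0.27 on tnaA, neither called.

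Counted together, 4 of 8 zig genes were called higher and 1 lower in late than in early worms on K12, where 32.9% of all tested genes were called higher and 36.7% lower. On tnaA the count was likewise 4 higher and 1 lower, against 35.6% and 36.3% of all tested genes. With library size as the only scaling, 5 were called higher and 0 lower on K12, and 6 higher and 0 lower on tnaA, where zig-5 (0.80) and zig-6 (1.02) were added and zig-7 was lost. Under that scaling, 7755 of the 15133 tested genes were called higher and 3032 lower on K12, against 4974 and 5553 with TMM. On tnaA these counts were 7848 and 3140, against 5394 and 5498 with TMM. DESeq2 called 3 higher and 1 lower on each food. The median over the 8 genes was 0.40 on K12 and 0.49 on tnaA, beside −0.04 and 0.02 over all tested genes. The age differences of zig-3, zig-4 and zig-8 were called on both foods under all 19 alternative settings.

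**Figure D2:**
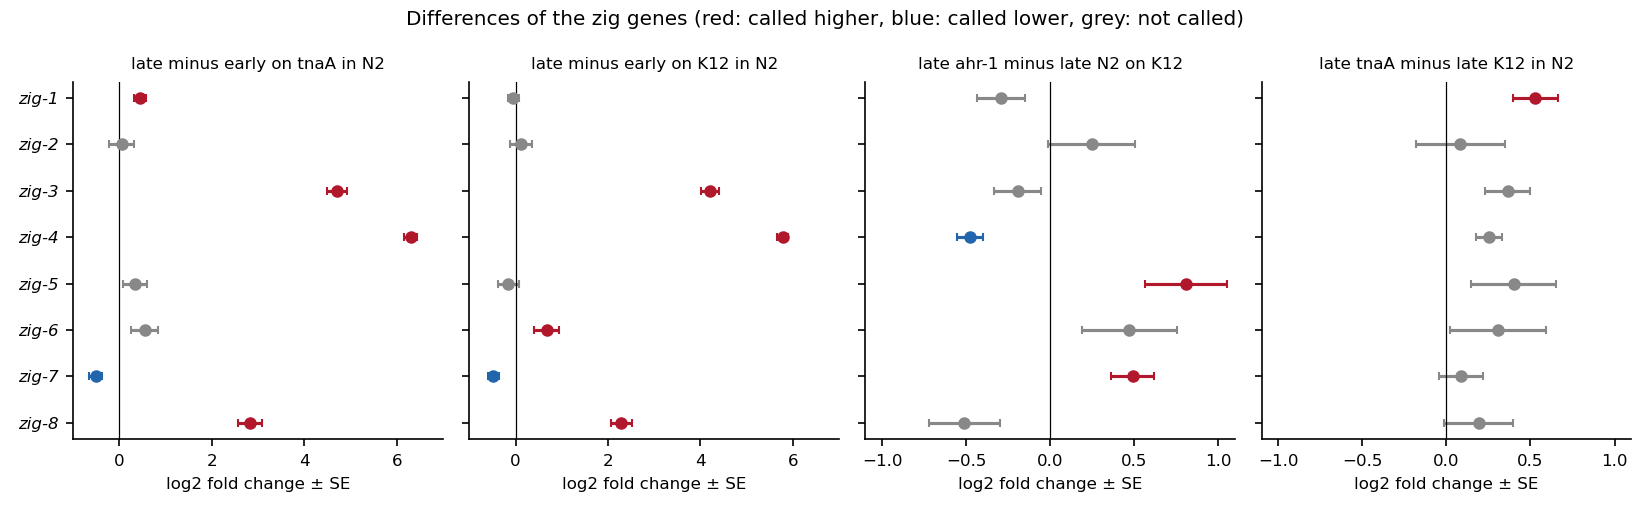
Fitted log2 fold changes with standard errors (horizontal axis) of the 8 zig genes in 4 comparisons; red marks genes called higher, blue called lower and grey not called, and the axis is narrower in the panels at right. The age differences of zig-4 reach 5.78 on K12 and 6.30 on tnaA, whereas no zig gene exceeds 0.81 in size in the comparisons of late worms.

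The order of the family differed between the ages, with zig-4, zig-3 and zig-8 placed higher in late than in early N2 worms. In late N2 K12 worms, per kilobase of annotated exon, zig-4 led with 89.4 ± 2.07 CPM (SD, n = 2). zig-7 (25.8 ± 3.54) and zig-3 (24.4 ± 4.80) came next and overlapped, followed by zig-8 (8.64 ± 0.00366), zig-1 (8.06 ± 0.330), zig-6 (4.58 ± 0.214), zig-2 (3.34 ± 0.780) and zig-5 (2.67 ± 0.107), each above the next in both libraries. In early N2 K12 worms zig-7 led with 36.0 ± 1.26 CPM per kilobase, followed by zig-1 with 8.33 ± 0.0713 (SD, n = 3). Below them came zig-2 (3.07 ± 0.669), zig-5 (2.97 ± 0.588), zig-6 (2.87 ± 0.682), zig-8 (1.75 ± 0.478), zig-4 (1.62 ± 0.427) and zig-3 (1.31 ± 0.158), each overlapping with the next. zig-4 thus held rank 1 of 8 in late worms and rank 7 of 8 in early worms.

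On tnaA bacteria the order was similar. Late tnaA worms had, per kilobase, 107 ± 7.26 CPM of zig-4, then 31.2 ± 4.36 of zig-3 and 27.3 ± 1.21 of zig-7, which overlapped, then 11.7 ± 0.750 of zig-1, 9.83 ± 0.740 of zig-8, 5.77 ± 1.71 of zig-6, and 3.55 ± 0.265 of zig-2 and 3.55 ± 0.404 of zig-5, which overlapped (SD, n = 2). Early tnaA worms had 39.2 ± 5.43 CPM per kilobase of zig-7, then 8.56 ± 1.12 of zig-1, 3.88 ± 0.0216 of zig-6, 3.42 ± 0.0507 of zig-2 and 2.81 ± 0.215 of zig-5. zig-8 (1.40 ± 0.397), zig-4 (1.34 ± 0.319) and zig-3 (1.20 ± 0.250) came last there and overlapped. In late ahr-1 worms zig-4 (64.2 ± 0.936), zig-7 (36.3 ± 5.53) and zig-3 (21.4 ± 0.167) led without overlap. There, zig-1 (6.58 ± 0.191) overlapped with zig-6 (6.37 ± 2.14), and zig-6 with zig-8 (6.05 ± 0.784), whereas zig-5 (4.68 ± 0.518) and zig-2 (3.96 ± 0.401) came last. zig-4 alone held 46.0 to 58.6% of the family's reads in late libraries and 2.12 to 4.35% in early ones.

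**Figure D3:**
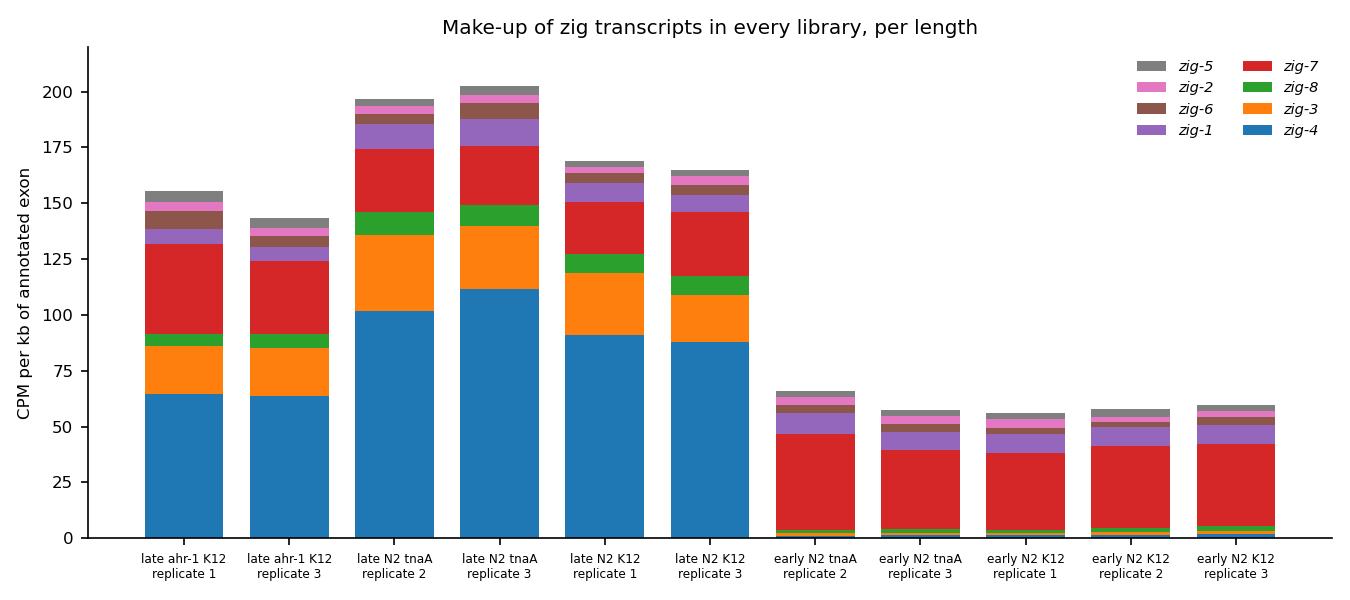
CPM per kilobase of annotated exon (vertical axis) of the 8 zig genes, stacked, in each library. zig-4 (blue) is the largest block in all 6 late libraries, and zig-7 (red) is the largest in all 5 early ones.

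Late ahr-1 mutants differed from late N2 worms, both on K12, in a mixed way across the family. zig-4 read 67.4 and 66.0 CPM in ahr-1 worms (807 and 894 reads) and 94.4 and 91.4 CPM in N2 worms, with both mutant libraries below both N2 libraries. It was called lower, by −0.48 ± 0.08 (log2, SE), and stayed called under all 19 alternative settings, between −0.52 and −0.45. The authors' deposited table of this comparison, made from this same series, lists 2071 genes. That table holds zig-4 at −0.46 (SE 0.101, adjusted p 0.000165 by the authors' DESeq2 test) and lists no other zig gene among the 8. It is therefore no separate support for the zig-4 difference. The mutant level was far above that of early N2 worms, whose highest reading on either food was 2.18 CPM.

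zig-5 went the other way, at 5.01 and 4.28 CPM in ahr-1 worms against 2.57 and 2.72 CPM in N2 worms, and was called higher, by 0.81 ± 0.25. With 60 and 58 reads in ahr-1 worms and 45 and 45 reads in N2 worms, that call was lost without any 1 of these 4 libraries, with values between 0.69 and 0.91, and also under DESeq2 (0.77), without a filter on low counts (0.78) and with a replicate block (0.81). zig-7 read 30.1 and 24.2 CPM in ahr-1 worms and 17.4 and 21.2 CPM in N2 worms, and was called higher, by 0.49 ± 0.13. Its call was lost without late ahr-1 K12 replicate 1 (0.33) or late N2 K12 replicate 1 (0.35).

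The other members were not called in ahr-1 worms. zig-8 read 5.34 and 6.42 CPM in ahr-1 worms and 8.40 and 8.41 CPM in N2 worms, below in both mutant libraries, with a difference of −0.51 ± 0.21. zig-1 was also below in both, at 6.85 and 6.57 CPM in ahr-1 worms and 8.46 and 7.99 CPM in N2 worms. Its difference was −0.29 ± 0.14. With 2 libraries per group, such separation can also occur in genes that do not differ. zig-3 read 20.4 and 20.6 CPM in ahr-1 worms and 26.6 and 20.2 CPM in N2 worms, which overlapped, a difference of −0.19 ± 0.14. zig-2 (4.09 and 3.54 CPM in ahr-1 worms) and zig-6 (7.43 and 4.58 CPM in ahr-1 worms) differed by 0.25 ± 0.26 and 0.47 ± 0.28. In all, 2 of 8 zig genes were called higher and 1 lower in ahr-1 worms, where 12.3% of all tested genes were called higher and 12.2% lower. Their median was 0.03, beside 0.00 over all tested genes.

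Late N2 worms on tnaA bacteria, against late N2 worms on K12, had the higher fitted level for each of the 8 genes, from 0.08 to 0.53 on the log2 scale, and 1 was called. The sign was not stable for 3 of them. Without late N2 K12 replicate 1, zig-2 stood at −0.14 and zig-7 at −0.05. Without late N2 tnaA replicate 3, zig-6 stood at −0.0071. Of the 15133 tested genes, 7209 had a larger difference than zig-2 and 7123 than zig-7. All 8 values rest on the same 4 libraries, and the share of all tested genes with a higher fitted level is not given here. The called gene was zig-1, at 11.4 and 12.5 CPM on tnaA (193 and 121 reads) and 8.46 and 7.99 CPM on K12 (148 and 132 reads), with a difference of 0.53 ± 0.13. Across all tested genes, 4.27% were called higher and 5.85% lower on tnaA (646 and 886 genes, against 865 and 839 with library size alone and 585 and 1152 with DESeq2's size factors), and the median was 0.06, beside 0.28 over the 8 zig genes. The zig-1 call was lost without any 1 of the 4 libraries compared, with values between 0.47 and 0.59. zig-4 read 105.5 and 116 CPM on tnaA and 94.4 and 91.4 CPM on K12, above in both libraries, with a difference of 0.25 ± 0.08 that was not called. It was called under 6 of the 19 alternative settings, among them library size as the only scaling (0.28) and a minimum mean of 5 CPM (0.29).

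Among the rest, zig-3 differed by 0.36 ± 0.14 and zig-5 by 0.40 ± 0.25, each above in both tnaA libraries. zig-8 was also above in both, by 0.19 ± 0.21, and zig-2, zig-6 and zig-7 overlapped between the foods, with differences of 0.08 ± 0.26, 0.31 ± 0.29 and 0.09 ± 0.13. The late N2 K12 libraries serve in this comparison, in that of ahr-1 worms and in that of age on K12, so these values are not independent of each other. Side by side, zig-4 differed by −0.48 ± 0.08 in ahr-1 worms and by 0.25 ± 0.08 on tnaA, both against late N2 worms on K12. For zig-1 these values were −0.29 ± 0.14 and 0.53 ± 0.13, and for zig-8 −0.51 ± 0.21 and 0.19 ± 0.21. For zig-3 they were −0.19 ± 0.14 and 0.36 ± 0.14. The remaining genes had the same sign in both, with 0.49 ± 0.13 and 0.09 ± 0.13 for zig-7, and 0.81 ± 0.25 and 0.40 ± 0.25 for zig-5. For zig-6 the values were 0.47 ± 0.28 and 0.31 ± 0.29, and for zig-2 0.25 ± 0.26 and 0.08 ± 0.26. The authors' deposited table for the food comparison lists 1380 genes and 0 of the 8 zig genes.

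In early worms, tnaA and K12 libraries gave no called zig gene by edgeR, 0 at an unadjusted p under 0.05 and 0 by DESeq2, with differences between −0.34 and 0.43. In that comparison 0.0661% of all tested genes were called in either direction. The age difference itself was also compared between the foods, as an interaction term in the same fit. It was called for 0 of 8 zig genes by edgeR and 0 by DESeq2, with 1 at an unadjusted p under 0.05 (zig-1, 0.49 ± 0.19), and for 2.41% of all tested genes, of which 40.4% were higher with TMM, 30.3% with DESeq2's size factors and 61.5% with library size alone. The interaction values of zig-4, zig-8 and zig-3 were 0.53 ± 0.29, 0.53 ± 0.36 and 0.49 ± 0.37; none of these was called.

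The zig family belongs to a wider system, and its other parts are given from lists of genes named for their known roles. Their counts stand beside the shares over all tested genes. With age these were 32.9% higher and 36.7% lower on K12, and 35.6% and 36.3% on tnaA. In ahr-1 worms they were 12.3% higher and 12.2% lower, and in late worms on tnaA 4.27% and 5.85%. Of 7 genes outside the family that keep neurons in place, 5 rose and 1 fell in late worms on K12, with a median of 1.37 (log2), and 4 rose and 1 fell on tnaA, with a median of 1.15. The ankyrin gene unc-44, which ties membrane proteins to the cytoskeleton, was higher by 2.41 ± 0.07 on K12 (adjusted p = 2.23e-11, edgeR) and 2.81 ± 0.09 on tnaA. egl-15, the fibroblast growth factor receptor, was higher by 1.37 ± 0.10 on K12 and 1.99 ± 0.11 on tnaA. The syntrophin gene stn-2 was higher by 2.00 ± 0.20 on K12. The L1 cell adhesion gene sax-7, which acts beside zig-5 and zig-8, was higher there by 0.41 ± 0.06 (adjusted p = 3.06e-05, edgeR). The 1 gene that fell was let-756, by −0.60 on K12 and −1.09 on tnaA. Its mean level was 8.78 CPM in late and 13.3 CPM in early K12 worms, and 8.43 and 17.8 CPM on tnaA. In ahr-1 worms none of these 7 genes was called by edgeR, with 1 at an unadjusted p under 0.05 and 1 called by DESeq2. On tnaA late worms had 2 of 7 called higher, egl-15 by 0.43 ± 0.10 (adjusted p = 0.0196) and unc-44 by 0.27 ± 0.08 (adjusted p = 0.0488).

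Other immunoglobulin genes of the cell surface or of secreted proteins moved with age as well. Of 22 tested, 17 rose and 3 fell in late worms on K12 (median 1.14), and 19 rose and 2 fell on tnaA (median 1.82). Those with the smallest p on K12 were sax-3, the Robo receptor of axon guidance (1.91 ± 0.06), rig-5 (4.50 ± 0.17), igcm-3 (2.69 ± 0.11) and igcm-4 (3.87 ± 0.16), all with an adjusted p of 1.96e-10 or less by edgeR. In ahr-1 worms 5 of the 22 were called higher and 5 lower, among them ptp-3, a LAR-type receptor phosphatase (0.37 ± 0.06, adjusted p = 0.00141), and unc-52, the perlecan of muscle attachment (−0.64 ± 0.09, adjusted p = 0.000445). On tnaA, 5 of the 22 were called higher and 0 lower in late worms, with ptp-3 at 0.31 ± 0.06 (adjusted p = 0.0121, edgeR), rig-5 at 0.55 ± 0.11 and wrk-1, which keeps axons from crossing the ventral midline, at 0.28 ± 0.07.

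The later-named family members zig-9 and zig-10 moved apart with age. zig-10, which acts in the epidermis to limit synapse number, read 18.5 and 24.0 CPM in late K12 worms and 1.08, 1.20 and 2.34 CPM in early K12 worms, a difference of 3.76 ± 0.26 (adjusted p = 2.06e-08, edgeR). zig-9 read 4.12 and 3.45 CPM in late K12 worms and 11.4, 8.90 and 8.48 CPM in early K12 worms, a difference of −1.34 ± 0.22 (adjusted p = 8.92e-05, edgeR). The oig genes, with a single immunoglobulin domain, showed no common direction. Of 7 tested, 1 rose and 1 fell on K12 and 2 rose and 2 fell on tnaA, and oig-2 fell by −3.36 ± 0.19 on K12.

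Of 3 transcription factors of PVT or of zig expression, all 3 were higher in late worms on both foods. The LIM homeobox genes ceh-14 and lim-6 were higher by 0.87 ± 0.26 and 0.77 ± 0.25 on K12 (adjusted p = 0.00967 and 0.0148, edgeR), and by 1.22 ± 0.29 and 1.44 ± 0.29 on tnaA. lin-14, the timing factor of larval development, was higher by 1.34 ± 0.09 on K12 and 1.98 ± 0.11 on tnaA, and this age difference was larger on tnaA by 0.64 ± 0.14 (adjusted p = 0.0477, edgeR, interaction). lin-14 was lower in ahr-1 worms by −0.63 ± 0.09 (adjusted p = 0.000696, edgeR). lim-6 differed by 0.52 ± 0.26 and ceh-14 by 0.08 ± 0.27, neither called.

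**Figure D4:**
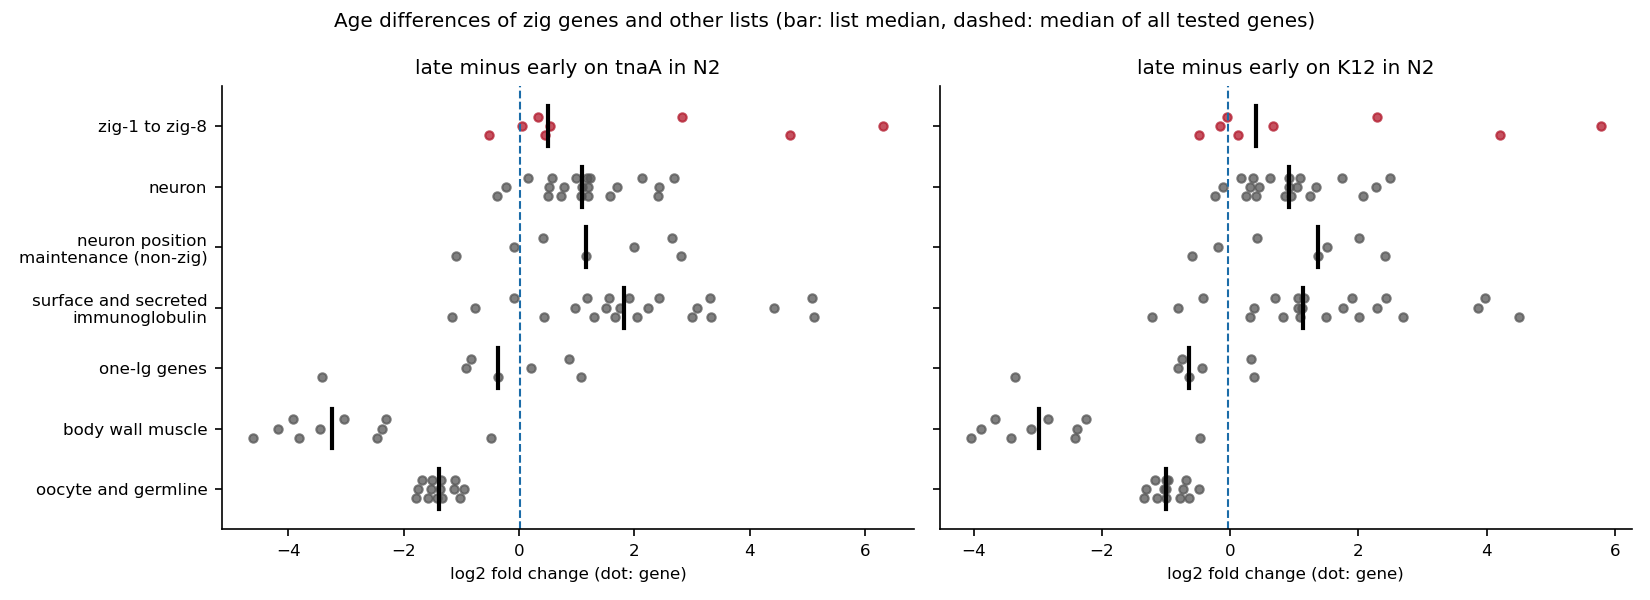
Log2 fold changes of late over early N2 worms (horizontal axis) on tnaA and on K12 for the genes of 7 lists; dots are genes, black bars are list medians and the dashed line is the median of all tested genes. zig-4 reaches 5.78 on K12 and 6.30 on tnaA, while all muscle and all germline genes drawn lie below 0.

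General neuronal genes were higher in late worms too, at a smaller size than zig-3 and zig-4. Of 21, 16 rose and 1 fell on K12 (median 0.91), and 18 rose and 2 fell on tnaA (median 1.09), and their summed level was 1102 to 1118 CPM in late K12 worms and 757 to 797 CPM in early K12 worms. The synaptic release genes unc-13 and unc-10 were higher by 1.75 ± 0.08 and 2.07 ± 0.10 on K12. The vesicle gene rab-3 was higher by 0.85 ± 0.14, the synaptotagmin gene snt-1 by 1.09 ± 0.18, the syntaxin gene unc-64 by 1.24 ± 0.08 and rgef-1 by 1.05 ± 0.22, whereas ric-4 differed by 0.24 ± 0.15 and was not called (adjusted p = 0.16, edgeR). All 10 muscle genes listed were lower in late worms, with a median of −2.97 on K12, and all 14 oocyte and germline genes were lower, with a median of −1.0. The germline list summed to 8700 to 9184 CPM in late K12 worms and 16840 to 18070 CPM in early K12 worms. The part of these whole-body differences in the zig age differences was not tested.

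In ahr-1 worms 6 of the 21 neuronal genes were called lower and 1 higher, with a median of −0.21. Over all tested genes, 12.2% were called lower and 12.3% higher. The defining markers unc-119 (0.01), unc-64 (−0.04), egl-3 (0.12), ric-4 (−0.26) and rgef-1 (−0.24) were not called. unc-10 differed by −0.56 ± 0.10 (adjusted p = 0.00206, edgeR), rab-3 by −0.71 ± 0.15 (adjusted p = 0.00546) and snt-1 by −0.78 ± 0.20 (adjusted p = 0.0133), while snb-1 was higher by 0.19 ± 0.06 (adjusted p = 0.029). The neuronal list summed to 1045 to 1063 CPM in late ahr-1 worms and 1102 to 1118 CPM in late N2 worms on K12. In late tnaA worms 3 of the 21 were called higher and 0 lower, with a median of 0.21, and the list summed to 1223 to 1242 CPM. Germline genes moved in both comparisons, with 13 of 14 called lower in ahr-1 worms and 14 of 14 on tnaA, and sums of 6048 to 7297 CPM and 6427 to 6811 CPM. Of 10 sperm genes tested, 8 were called higher and 0 lower in ahr-1 worms, with a median of 4.19. The sperm list summed to 31.6 and 37.9 CPM in late ahr-1 libraries and to 6.40 and 6.53 CPM in late N2 K12 libraries. On tnaA in late worms, 0 of these 10 were called. Reads outside annotated genes made up 13.8 and 11.6% in ahr-1 libraries, 9.26 and 14.8% in late tnaA libraries and 8.56 and 8.27% in late N2 K12 libraries. The part of these values in the zig differences between late groups was not tested.

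The protein-coding genes beside the zig-4 and zig-3 pair, named by position, differed with age in both directions. On the zig-4 side, C39D10.7 was lower by −0.87 ± 0.06 in late K12 worms (adjusted p = 1.59e-08, edgeR), C39D10.1 had too few reads to be tested, and C39D10.11 differed by 0.10 ± 0.22 and was not called. On the zig-3 side, the muscle troponin gene tnt-3 was lower by −2.16 ± 0.09, dct-1 higher by 1.55 ± 0.07 and sfxn-2 higher by 0.87 ± 0.11. The increases of zig-4 and zig-3 on K12 were thus larger than that of any of the 5 tested neighbours.

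Within the family, likeness of pattern was measured as the root-mean-square difference of log2 CPM over the 5 group means, after each gene was centred on its own mean. zig-2 and zig-5 were close, at 0.194, zig-3 and zig-4 differed by 0.770, and zig-4 and zig-7 were farthest apart, at 3.01. Among the 9396 genes whose mean reached 5 CPM, those nearest to zig-4, whose group means span 6.18 on the log2 scale, were spp-20 (0.169), a saposin-like gene, cutl-16 (0.218), K12G11.6 (0.231), fmi-1 (0.256), the Flamingo cadherin of axon navigation, and F40H7.12 (0.264). Those nearest to zig-7, which spans 0.60, were rpb-12 (0.019), an RNA polymerase subunit gene, T07A5.5 (0.0249), tra-3 (0.0297), a calpain gene, dpy-31 (0.0354), an astacin protease gene, and osm-11 (0.0445). In the 5 genes nearest to zig-4, fitted late minus early differences on K12 ran from 4.91 (fmi-1) to 8.18 (spp-20), beside 5.78 for zig-4. The distances use log2 CPM with a prior count of 2, which draws low levels together, so near genes can differ in fitted change. These distances are descriptions over 5 points that share libraries, and a gene with a flat pattern has many near neighbours.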

How the data were processed

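Whole-worm RNA of 11 libraries was measured. Per the submitters' processing notes the tools were Trim Galore, STAR, HTSeq 0.6.1p2 and DESeq2. No source used here gives the genome build, the annotation or the strand setting. For each library the authors deposited raw counts of reads per gene, and rows that name no gene were kept out of library sizes. The deposited tables of the authors' own comparisons hold log2 fold changes and p-values, and their direction was checked against the counts. A further 8 columns of per-sample values in those tables were not used.

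Counts were tested with edgeR 4.0.16 (limma 3.58.1, R 4.3.3): TMM scaling, filterByExpr with a minimum count of 10, 1 quasi-likelihood fit over all 11 libraries with a mean per group and 6 residual degrees of freedom, and Benjamini-Hochberg adjustment over 15133 genes, with a threshold of 0.05. The standard error is the fitted log2 fold change divided by the root of the F statistic. Exon lengths came from Ensembl 115, matched by gene ID, and levels per kilobase use them. The fit was tested on simulated data. The labels call the samples biological replicates of pooled worms; replicate pairs differed by more than sampling noise.

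The members and the 12 gene lists were chosen with earlier results of these data known. Named were all 8 members, the defining neuronal markers, ahr-1, and the neighbours of zig-4 and zig-3 by position. Per list and comparison, at most 4 genes past the threshold were named, smallest p first. let-756 was named besides, as the gene of its list that was lower with age. Also named were the 5 genes nearest in pattern to each of the 2 members with the highest mean level. For these, log2 CPM was taken with a prior count of 2. Lists for intestine, hypodermis, sperm and early embryo were computed too. In late against early K12 worms, 8 of 9 intestine genes tested were lower and 0 higher. Of 6 hypodermis genes tested, 3 were lower and 2 higher. Of 10 sperm genes, 7 were lower and 1 higher, and of 8 early embryo genes, 3 were lower and 2 higher. Content of later embryos or of larvae in the samples was not tested. Each comparison had 19 alternatives: other scalings, filters, DESeq2 1.42.0, compared groups alone, a replicate block, no sperm-rich early N2 libraries, and each library left out in turn. No sequences are printed.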

Additional observations from a re-analysis of the deposited data

How the results depend on the processing

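Differences of the 8 zig genes were recomputed under 19 alternatives per comparison. The count of called zig genes in ahr-1 worms (3) ran from 1 to 3 when 1 library was left out, and was 1 without late ahr-1 K12 replicate 1 or late N2 K12 replicate 1. On tnaA in late worms the count (1) was 2 with library size as the only scaling, with a mean of at least 5 CPM, with the compared groups alone and without the sperm-rich libraries. It was 0 without a filter on low counts, under DESeq2 and with the replicate block. Leaving out 1 library gave 0 to 2: 0 without any 1 of the 4 late libraries compared, and 2 without early N2 K12 replicate 1 or 3. zig-1 in late against early K12 worms turned to 0.37 (log2) with library size as the only scaling, beside −0.05. The cause of these changes was not tested. Nothing in the labels says that replicate numbers pair the samples. Same-numbered libraries of different groups had correlations of deviations from −0.545 to 0.149. Groups this small cannot show from such values whether a number marks a shared culture or day. With the replicate block, the zig-5 call in ahr-1 worms (0.81), the zig-6 call of age on K12 (0.52) and the zig-1 call on tnaA (0.53) were also lost.

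Over all zig genes and alternatives, 132 to 141 of 149 values per comparison kept their direction and call. This tally includes genes that were never called and fits that left out a library outside the comparison. Single calls could be less stable. In ahr-1 worms zig-5 was called under 11 of 18 alternatives and zig-4 under 19 of 19. In late worms on tnaA zig-1 was called under 12 of 19. Groups of 2 or 3 libraries and 12 to 28 reads each of zig-3, zig-4 and zig-8 in the early libraries limit the precision of their fold changes.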

Other observations

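Patterns near zig-3 and zig-8 were read after their values had been seen. The genes nearest to zig-3 over the 5 group means were R06C1.6 (root-mean-square difference 0.0485), oac-7 (0.0637), T26H5.9 (0.0708) and igcm-4 (0.0751), itself an immunoglobulin gene, which was higher by 3.87 (log2) in late than in early K12 worms. The genes nearest to zig-8 were unc-80 (0.0545), part of the sodium leak channel of neurons, C05D10.2 (0.0642), ham-2 (0.0675), a zinc finger gene of neuron migration, ptl-1 (0.0678), the worm tau gene, and shn-1 (0.072), the worm Shank gene of synapses. Late minus early differences on K12 in these 5 genes ran from 2.12 to 2.35, beside 2.29 for zig-8.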
